A study of Mus musculus with 20 samples.

Results

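The 4 libraries of the NSC gate were compared with all progenitor gates together. NSC is the study's name for the neural stem cell population of the neonatal mouse periventricular zone, the tissue around the lateral ventricles. In each of 4 batches, the log2(RPKM + 1) value of the NSC library was set against the mean of the same value in the 4 progenitor libraries of that batch, where RPKM is the number of reads scaled to transcript length and to the library's mapped reads. The 20 libraries therefore gave 4 pairs, from 4 NSC libraries and 16 progenitor libraries. Of 45705 genes in the table, 27614 reached an RPKM of 1 in at least 4 libraries and were tested. Differences are on this log2 scale, as NSC minus progenitors, and they understate the change of genes with low RPKM.

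All libraries came from Swiss Webster pups at postnatal day 5. The pups of a litter were pooled, both sexes together, and the study describes 4 independent experiments, which the labels number as batches. Cells were sorted on the surface antigens CD133, CD15 (LeX), CD140a and NG2. NSC were the CD140a- NG2- CD133+ CD15+ cells. The progenitor gates were BNAP/GRP1 (CD140a- NG2+ CD133- CD15+), GRP2/MP3 (CD140a- NG2+ CD133- CD15-), GRP3 (CD140a+ NG2+ CD133- CD15-) and PFMP (CD140a+ NG2+ CD133- CD15+). BNAP stands for bipotential neuronal-astrocytic progenitor, GRP for glial-restricted progenitor, MP for multipotential progenitor and PFMP for PDGF-FGF responsive multipotential progenitor. The gates are defined by antigens alone, and a gate can hold cells of more than 1 type. A population was 1 library per batch, so the spread behind each paired test is that between batches.

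Neural stem cells of this zone are astroglia-like cells that descend from radial glia, touch the ventricle with a thin process that carries a single primary cilium, and give rise to transit amplifying cells and neuroblasts. Around them lie ependymal cells, which descend from radial glia as well, mature in the first postnatal weeks and carry tufts of motile cilia that move the cerebrospinal fluid. CD133 protein, encoded by Prom1, is found on neural stem cells and also on ependymal cells and their cilia. In the assembly of motile cilia, a cascade of transcription regulators switches on deuterosome proteins, which multiply the basal bodies, and the many proteins of the axoneme.

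The libraries of batch 3 stood apart from the rest. Globin transcripts took 15.9 to 17.9% of the summed RPKM of its 5 libraries and at most 1.21% in every other library. Over genes, NSC 3 correlated with the progenitor libraries of its own batch at r = 0.934 to 0.938. The NSC libraries correlated with each other at r = 0.568 to 0.889, the highest being NSC 1 with NSC 2 and the lowest NSC 3 with NSC 4. NSC 4 correlated with NSC 1 and NSC 2 at 0.649 and 0.681, less than NSC 3 did at 0.709 and 0.718. BNAP/GRP1 4 correlated with the NSC library of its batch at 0.391, the lowest of the progenitor libraries. Among 1019 genes with a batch 3 progenitor mean of 100 RPKM or more, the median ratio of NSC 3 to that mean was 0.951 (quartiles 0.906 and 1.05). Counts are therefore given with and without batch 3, and a single gene's adjusted p without batch 3 stands beside the main one wherever leaving it out ended or made a call. The adjusted p with batch as a replicate block over all 20 libraries stands beside it where that fit did. Sequencing depth was estimated relative to 1 reference library, BNAP/GRP1 1, from the most frequent ratio of its RPKM values to those of each library. The estimates were 0.157, 0.365, 0.733 and 0.158 in NSC 1 to 4 and 0.0395 to 1.41 in the progenitors, lowest in BNAP/GRP1 4. They are uncertain. In BNAP/GRP1 4 the ratio was shared by 340 genes, and that library had 38191 genes above 0 against 31999 in the reference.

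The transcripts behind the sorting antigens were read first. Prom1 (CD133) stood at 84.2, 46.1, 10.01 and 9.56 RPKM in NSC 1 to 4 and at 0.255 to 35.5 RPKM in the progenitors, a difference of 1.86 ± 0.69 (SE, n = 4 pairs; limma adjusted p = 0.331, and 0.0371 with the replicate block). NSC 1 and NSC 2 lay above every progenitor library, whereas NSC 4 lay below the mean of its batch (-0.81). Pdgfra (CD140a) stood at 3.81, 0.731, 1.15 and 3.15 RPKM in NSC 1 to 4. In the CD140a+ gates it reached 96.9 to 803 RPKM in batches 1, 2 and 4, but 3.41 and 3.84 RPKM in GRP3 3 and PFMP 3, so the batch 3 libraries of those gates did not carry the transcript of the antigen they were sorted on at a comparable level. The difference for Pdgfra was -3.07 ± 0.63 (adjusted p = 0.112) and -3.81 without batch 3 (adjusted p = 0.0549, and over all 4 batches 0.0423 with the replicate block). Cspg4 (NG2) differed by -2.26 ± 0.65 (adjusted p = 0.252). It stood at 0.405, 0.438, 0.197 and 1.12 RPKM in NSC 1 to 4. In BNAP/GRP1, a gate sorted as NG2+, it stood at 0.844, 0.249, 0.0362 and 8.49 RPKM in batches 1 to 4, below NSC in batches 2 and 3. Fut4 and Fut9, which encode fucosyltransferases that make the CD15 epitope, differed by -0.42 (adjusted p = 0.547) and -0.97 (adjusted p = 0.351).

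Genes of motile cilia were at the head of those that rose in the NSC gate. At an adjusted p of 0.05, 255 genes were higher in NSC (0.923% of those tested) and 2 were lower (0.00724%). At an unadjusted p of 0.05 the numbers were 2300 (8.33%) and 1495 (5.41%). The median difference over all genes tested was -0.07, and 10.1% of genes were higher and 11.9% lower in NSC in all 4 batches. In 162 genes (0.587%) the lowest NSC library lay above all 16 progenitor libraries, and 115 of these were among the 255. Of the 255 genes, 235 were protein coding (92.2%, against 60.5% of the genes tested). The lists of cilium and ependymal genes held 54 of the 255, and 198 were in none of the 24 lists read. Without batch 3, 160 genes were higher (0.579%), of which 109 were also higher with it, and 7 were lower (0.0253%).

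The number of calls depended on the batches and on the way pairs were formed. Without batch 1, or without batch 4, no gene passed in either direction by limma, with 1611 and 1905 genes higher and 371 and 461 lower at an unadjusted p of 0.05. Without batch 2, 32 genes were higher. With batch as a replicate block over all 20 libraries, 1143 genes were higher and 62 lower, and 254 of the 255 higher genes were among them but neither of the 2 lower genes.

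**Figure D1:**
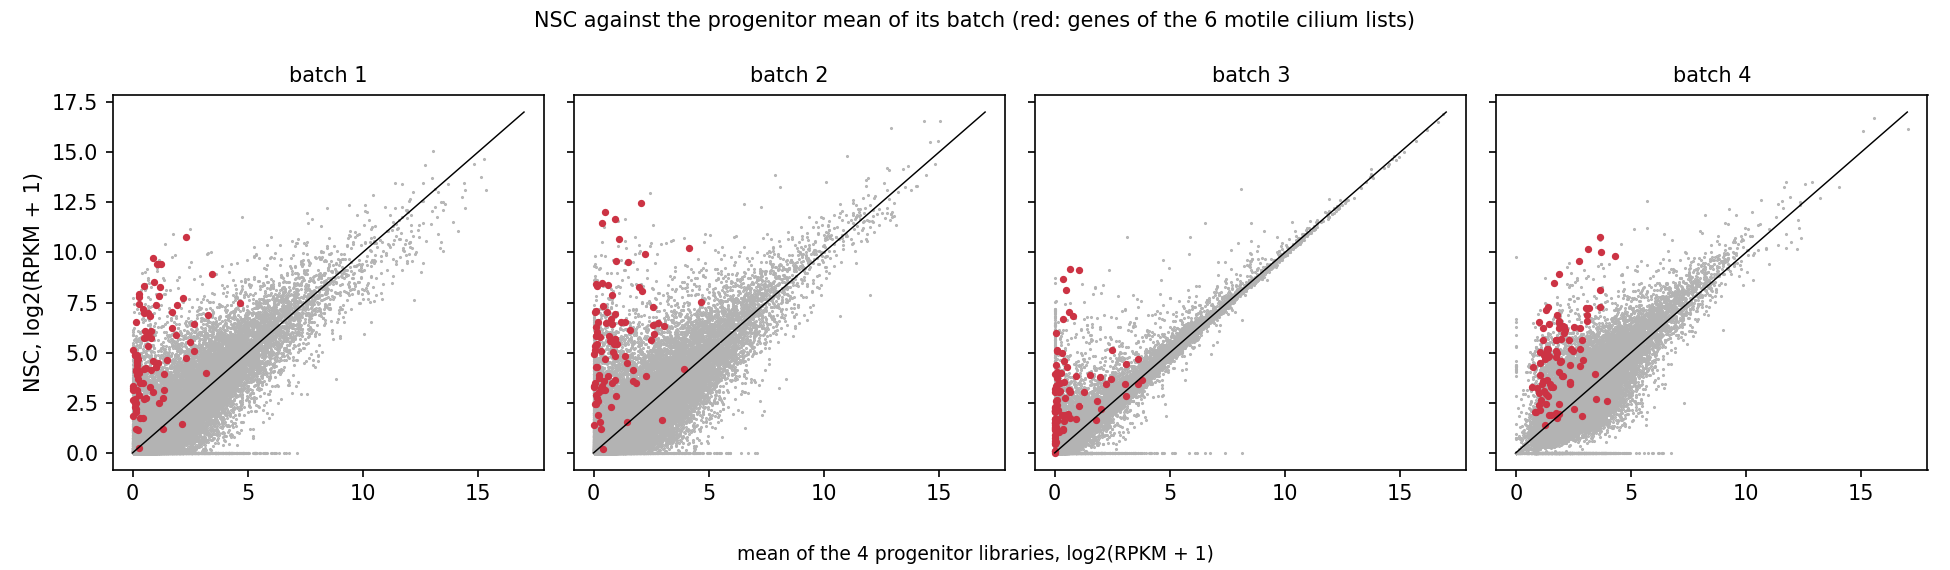
Each panel plots 1 batch, with the progenitor mean of log2(RPKM + 1) on the x axis and the NSC value on the y axis. Grey points are the 27614 genes tested and red points the genes of the motile cilium lists. The grey cloud is broad in batches 1, 2 and 4 and lies close to the diagonal in batch 3, and in each batch most red points lie above the diagonal.

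Genes of the motile cilium were read in 6 lists, from regulators to structural proteins. Of 91 genes tested, 41 rose in NSC (45.1%, against 0.923% of all genes), and none passed as lower, with 85 higher and 0 lower at an unadjusted p of 0.05. The filter counted the NSC libraries, so genes could be tested because they were high in NSC. Among progenitors, Trp73, Hydin and Rfx2 reached 1 RPKM only in BNAP/GRP1 4. The shares are those of genes chosen in part through NSC values. The median difference was 3.31, against -0.07 for all genes, and 83 of the 91 were higher in all 4 batches. The medians by batch were 3.68, 4.22, 1.81 and 3.04. In 28 genes (30.8%, against 0.587% of all genes) each NSC library lay above all 16 progenitor libraries. Without batch 3, 35 of the 91 were higher, and with the replicate block 81.

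The summed RPKM of these genes was 9841, 26504, 2834 and 9865 in NSC 1 to 4 and 94.2 to 871 (median 159) in the progenitor libraries. The highest progenitor library was BNAP/GRP1 4, which had the lowest depth estimate of the series, and the batch 3 progenitors held 94.2 to 112. NSC 3 was the lowest NSC library and still lay above all progenitor libraries. In sorted bulk samples, fewer cells of a type and less RNA per cell cannot be told apart.

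The signal was high against each progenitor gate, all of which were set against the same NSC libraries. The median difference of the 91 genes was 2.88 against BNAP/GRP1, 3.48 against GRP2/MP3, 3.30 against GRP3 and 3.57 against PFMP. In all 4 batches, 66, 82, 83 and 84 genes were higher against these gates in turn, where 7.68, 12, 9.07 and 12.3% of all genes were. Without BNAP/GRP1 of batch 4, an alternative chosen after seeing the data, 512 genes were higher in NSC, 66 of them among the 91.

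**Figure D2:**
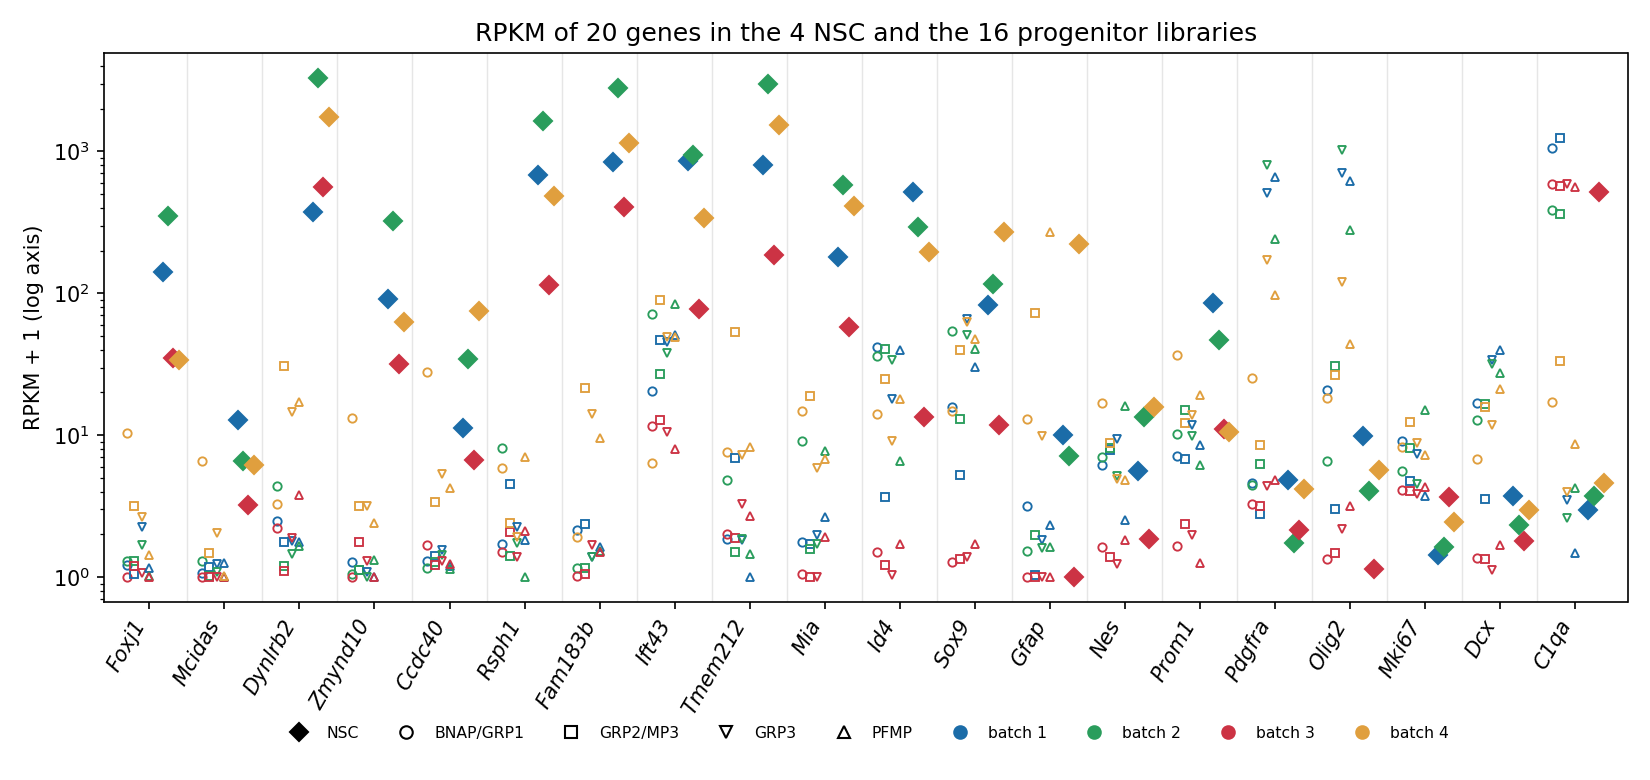
Each column is 1 gene and each point 1 library, on a log axis of RPKM + 1. Filled diamonds are NSC, open symbols the 4 progenitor gates, and colours mark the batches. For Fam183b, Dynlrb2 and Rsph1 all NSC points lie above all progenitor points, while Nes and Gfap overlap and Pdgfra is highest in GRP3 and PFMP libraries other than those of batch 3.

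Stretches before the RefSeq start of 6 of the called cilium genes were chosen for display because they hold the core letters of the X-box, the site that RFX transcription factors, regulators of cilium genes, are known to bind. The letters searched were GTTGCC on either strand (read as GGCAAC on the other), printed in capitals. The sequences are from RefSeq (build GRCm38.p6), 5′ to 3′ on the gene's strand. Fam183b is at chr11:58801961-58802060 (minus strand), Dynlrb2 at chr8:116504874-116504973 (plus), Ccdc153 at chr9:44240477-44240576 (plus), Enkur at chr2:21205366-21205465 (minus), Lrrc23 at chr6:124779728-124779827 (minus) and Tekt1 at chr11:72361883-72361982 (minus). The GENCODE gene of Tekt1 runs from 72344722 to 72362442 on chromosome 11 and so starts before this RefSeq start, and the stretch lies within it.
Fam183b: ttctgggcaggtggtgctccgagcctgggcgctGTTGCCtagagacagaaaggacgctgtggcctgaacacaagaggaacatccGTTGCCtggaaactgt
Dynlrb2: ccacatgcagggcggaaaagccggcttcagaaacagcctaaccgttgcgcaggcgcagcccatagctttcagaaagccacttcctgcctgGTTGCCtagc
Ccdc153: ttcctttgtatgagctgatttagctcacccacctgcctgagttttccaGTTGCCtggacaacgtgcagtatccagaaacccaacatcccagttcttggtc
Enkur: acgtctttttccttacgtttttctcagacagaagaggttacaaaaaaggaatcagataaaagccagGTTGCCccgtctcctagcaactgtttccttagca
Lrrc23: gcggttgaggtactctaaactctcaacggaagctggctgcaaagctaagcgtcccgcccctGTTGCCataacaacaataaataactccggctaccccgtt
Tekt1: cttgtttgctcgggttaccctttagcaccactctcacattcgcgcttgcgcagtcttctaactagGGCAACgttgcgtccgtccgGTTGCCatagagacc

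In the 250 bases before the start, the letters were present in 48 of the 173 higher genes that had an entry (27.7%), in 10.6% of the 13918 tested genes with an entry and in 10.5% of all 27025 entries. Among called genes of the lists, 13 of 41 with an entry held them (31.7%). In Fam183b they lay 67 and 16 bases before the RefSeq start, in Dynlrb2 51, in Ccdc153 152 and in Enkur 34 bases before it. They were not found in the windows of Crygn, Tmem212 and Meig1. A match is a description of the letters and no evidence of binding.

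Regulators of multiciliation came first in the order of roles. Of 15 genes tested, 5 rose (median 1.99), and 12 were higher at an unadjusted p of 0.05. Against BNAP/GRP1 alone, 7 were higher in all 4 batches, and the median in batch 4 was -0.088. Against GRP2/MP3, GRP3 and PFMP, 11, 12 and 12 were higher in all 4 batches. Foxj1, the transcription factor that drives motile cilium genes (chromosome 11, 116330704 to 116335399), stood at 141, 352, 34.3 and 33.1 RPKM in NSC 1 to 4 and at 0.00416 to 9.42 RPKM in the progenitors. All NSC libraries lay above all progenitor libraries, by 5.80 ± 0.77 (SE, n = 4 pairs; limma adjusted p = 0.0372; 0.0826 without batch 3).

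Upstream of Foxj1 in the cascade, Mcidas (multicilin), a coactivator that starts multiciliation, stood at 11.7, 5.62, 2.22 and 5.19 RPKM in NSC 1 to 4 and at 0 to 5.58 RPKM in the progenitors. NSC was higher in 15 of 16 comparisons with single progenitor libraries of its batch (2.31 ± 0.34, adjusted p = 0.049; 0.0815 without batch 3). Myb, a transcription factor of early multiciliated cells, stood at 127, 47.9, 18.4 and 30.5 RPKM against 0.293 to 8.94, with no overlap between the groups (3.83 ± 0.45, adjusted p = 0.03; 0.0757 without batch 3). Trp73, encoding p73, stood at 2.53, 4.40, 0.887 and 6.63 RPKM against 0 to 9.61 and differed by 1.68 ± 0.25 (adjusted p = 0.0477; 0.0521 without batch 3). Its highest value, 9.61 RPKM in BNAP/GRP1 4, lay above every NSC library. Ccdc67 (Deup1), the scaffold of the deuterosome, stood at 28.3, 54.3, 7.27 and 68.6 RPKM against 0 to 8.82 and rose by 4.32 ± 0.46 (adjusted p = 0.025; 0.0459 without batch 3). Gmnc, at the head of the cascade, was low, at 1.30, 1.58, 0.051 and 1.59 RPKM (0.64, adjusted p = 0.348).

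Further members of this list were higher in all 16 comparisons and did not pass the test. Ccno, which encodes a cyclin needed for deuterosomes and is the gene next to Mcidas on chromosome 13, stood at 125, 63.5, 12.7 and 10.9 RPKM against 0 to 6.53 (4.14 ± 0.87, adjusted p = 0.126; 0.000206 with the replicate block). The RFX factors Rfx2 and Rfx3 differed by 1.99 (adjusted p = 0.0623; 0.0459 without batch 3 and 0.00146 with the replicate block) and 1.49 (adjusted p = 0.204). E2f4, E2f5 and Tfdp1, partners of multicilin that also act in the cell cycle, differed by -0.31, 0.01 and -0.75, and none passed.

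Axonemal dyneins are the motors of the cilium. All 19 tested genes were higher than the progenitor mean in all 4 batches, 5 of them past the test (median 2.18). Against single gates, 19 were higher in all 4 batches for GRP2/MP3, GRP3 and PFMP each, but 11 for BNAP/GRP1. The median against BNAP/GRP1 was 0.079 in batch 4. Dynlrb2, a light chain of dynein, stood at 370, 3292, 564 and 1740 RPKM in NSC 1 to 4 and at 0.109 to 29.8 RPKM in the progenitors (8.40 ± 0.63, adjusted p = 0.0182; 0.0461 without batch 3). The lowest NSC library was above the highest progenitor library. Dnali1, a light chain of the inner arm, stood at 169, 343, 32.3 and 49.3 RPKM against 0 to 3.71 (6.07 ± 0.76, adjusted p = 0.0337; 0.0698 without batch 3). Dnaic1, an intermediate chain of the outer arm, rose by 4.35 ± 0.51 (adjusted p = 0.0295; 0.0543 without batch 3). Of the heavy chains, Dnah10 stood at 5.41, 7.78, 2.26 and 8.62 RPKM against 0 to 9.85 (2.18 ± 0.26, adjusted p = 0.0303; 0.0607 without batch 3). Dnah9 stood at 126, 47.6, 8.22 and 13.1 RPKM against 0 to 14.2 and did not pass (4.06 ± 0.74, adjusted p = 0.0844; 0.000106 with the replicate block). For both, the highest progenitor library was BNAP/GRP1 4, which lay above NSC 4. Dnah7a, Dnah7b and Dnah7c are near copies of each other, and their separate values are uncertain.

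Dynein assembly factors, which build the arms in the cytoplasm before transport, rose in 4 of 9 tested (median 3.31). Zmynd10 stood at 90.8, 325, 31.0 and 62.0 RPKM in NSC 1 to 4 and at 0 to 12.2 RPKM in the progenitors (5.79 ± 0.72, adjusted p = 0.0337; 0.0696 without batch 3), with no overlap. Ccdc103 and Dyx1c1 each rose by 4.58 (SE 0.49 and 0.50, adjusted p = 0.025 and 0.0255). Dyx1c1 shares exons with a readthrough gene, and reads could be split between them.

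Docking complexes and nexin links, which anchor and coordinate the arms, rose in 5 of 11 tested (median 3.32). Ccdc40, part of the molecular ruler that sets the axonemal repeat, stood at 10.3, 33.2, 5.73 and 74.6 RPKM in NSC 1 to 4 and at 0.144 to 26.9 RPKM in the progenitors (3.41 ± 0.46, adjusted p = 0.0384; 0.0595 without batch 3). It was higher in 16 of 16 comparisons, although its ranges overlapped. Its partner Ccdc39 differed by 2.52 ± 0.51 (adjusted p = 0.109; 0.000586 with the replicate block). Iqcg, of the nexin-dynein regulatory complex, rose by 3.62 ± 0.34 (adjusted p = 0.0217).

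Radial spokes and the central pair, which regulate the beat, rose in 8 of 17 tested (median 3.25). Rsph1, a spoke head protein, stood at 682, 1647, 114 and 483 RPKM in NSC 1 to 4 and at 0 to 7.14 RPKM in the progenitors (7.71 ± 0.60, adjusted p = 0.0182; 0.0459 without batch 3). No library of either group entered the range of the other. Nme5 rose by 6.54 ± 0.44 (adjusted p = 0.0182), Rsph4a by 3.21 ± 0.37 (adjusted p = 0.0295) and Spag17, a central pair protein, by 3.25 ± 0.41 (adjusted p = 0.0345; 0.0552 without batch 3). Hydin, a central pair gene with low values in all libraries, differed by 1.34 ± 0.23 (adjusted p = 0.0695; 0.0118 with the replicate block).

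Tektins and other axoneme proteins, including those inside the microtubule doublets, rose in 14 of 20 tested, the largest share of the 24 lists (median 4.72). Fam183b (chromosome 11, 58792797 to 58801960), whose upstream stretch is shown above, stood at 839, 2805, 403 and 1147 RPKM in NSC 1 to 4 and at 0.0261 to 20.6 RPKM in the progenitors. The difference of 8.81 ± 0.65 was the largest of any called gene (adjusted p = 0.0182; 0.0459 without batch 3). Enkur stood at 223, 743, 128 and 1044 RPKM against 0 to 21.01 (6.86 ± 0.39, adjusted p = 0.0182). Tekt1, a filament protein along the doublets, stood at 66.9, 327, 15.6 and 115 RPKM against 0 to 7.21 (5.58 ± 0.62, adjusted p = 0.0264). Ccdc153 rose by 8.57 ± 0.77 (adjusted p = 0.0217). Meig1, known from sperm assembly, stood at 1725, 5582, 567 and 115 RPKM and was the only one of these with its lowest value in NSC 4 (7.77 ± 1.02, adjusted p = 0.0363; 0.098 without batch 3).

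Among the 12 largest differences were also genes outside the lists. Crygn, a gamma crystallin, stood at 2282, 7890, 359 and 6068 RPKM in NSC 1 to 4 and at 0 to 129 RPKM in the progenitors (8.63 ± 0.57, adjusted p = 0.0182), and was listed at 0 in all batch 3 progenitors. Lrrc23, a radial spoke protein, rose by 7.58 ± 0.54 (adjusted p = 0.0182) and Ccdc113, a protein of the axoneme, by 7.46 ± 0.61 (adjusted p = 0.0217). The other members of this top group were 3 gene models.

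Intraflagellar transport, the trains that build both motile and primary cilia, rose in 7 of 27 genes tested (median 2.03), and 21 were higher at an unadjusted p of 0.05. The list's summed RPKM was 4173, 4170, 689 and 2283 in NSC 1 to 4 and 189 to 633 in the progenitors. Ift43 stood at 857, 937, 76.1 and 337 RPKM against 5.32 to 89.0 (3.72 ± 0.36, adjusted p = 0.023). Only NSC 3 lay within the progenitor range, and it exceeded the 6.97 to 11.8 RPKM of its own batch. Ift81 rose by 3.42 ± 0.36 (adjusted p = 0.025; 0.0607 without batch 3) and Ift20 by 2.88 ± 0.38 (adjusted p = 0.0372; 0.0748 without batch 3). Without batch 3, 1 of the 27 passed, and with the replicate block 20 did.

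Markers of ependymal cells outside the cilium rose in 6 of 12 tested, with a median of 4.80, and all 12 were higher at an unadjusted p of 0.05. Their summed RPKM was 3593, 8019, 962 and 5735 in NSC 1 to 4 and 71.7 to 769 in the progenitors, with 460 to 487 in batch 3. Tmem212 stood at 795, 3005, 184 and 1544 RPKM in NSC 1 to 4 and at 0 to 52.4 RPKM in the progenitors (8.05 ± 0.70, adjusted p = 0.0217). Mia, a small secreted protein, stood at 179, 581, 56.4 and 412 RPKM against 0 to 17.8 (6.18 ± 0.42, adjusted p = 0.0182). The lowest NSC library exceeded the highest progenitor library in both. Tm4sf1, a membrane protein, rose by 6.65 ± 0.62 (adjusted p = 0.0217), Rarres2, the secreted chemerin, by 6.29 ± 0.79 (adjusted p = 0.0342; 0.0521 without batch 3) and Hspa2, a heat shock protein, by 4.25 ± 0.48 (adjusted p = 0.0271). NSC 3 was the lowest NSC library in all of these. Ezr, the membrane linker ezrin, stood at 186, 187, 71.1 and 174 RPKM in NSC 1 to 4 (3.09 ± 0.74, adjusted p = 0.177; 0.0476 without batch 3 and 0.00363 with the replicate block), and its difference in batch 3 was 0.22, while the progenitors of that batch held 58.6 to 65.2 RPKM. Without batch 3, 5 of the 12 passed.

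**Figure D3:**
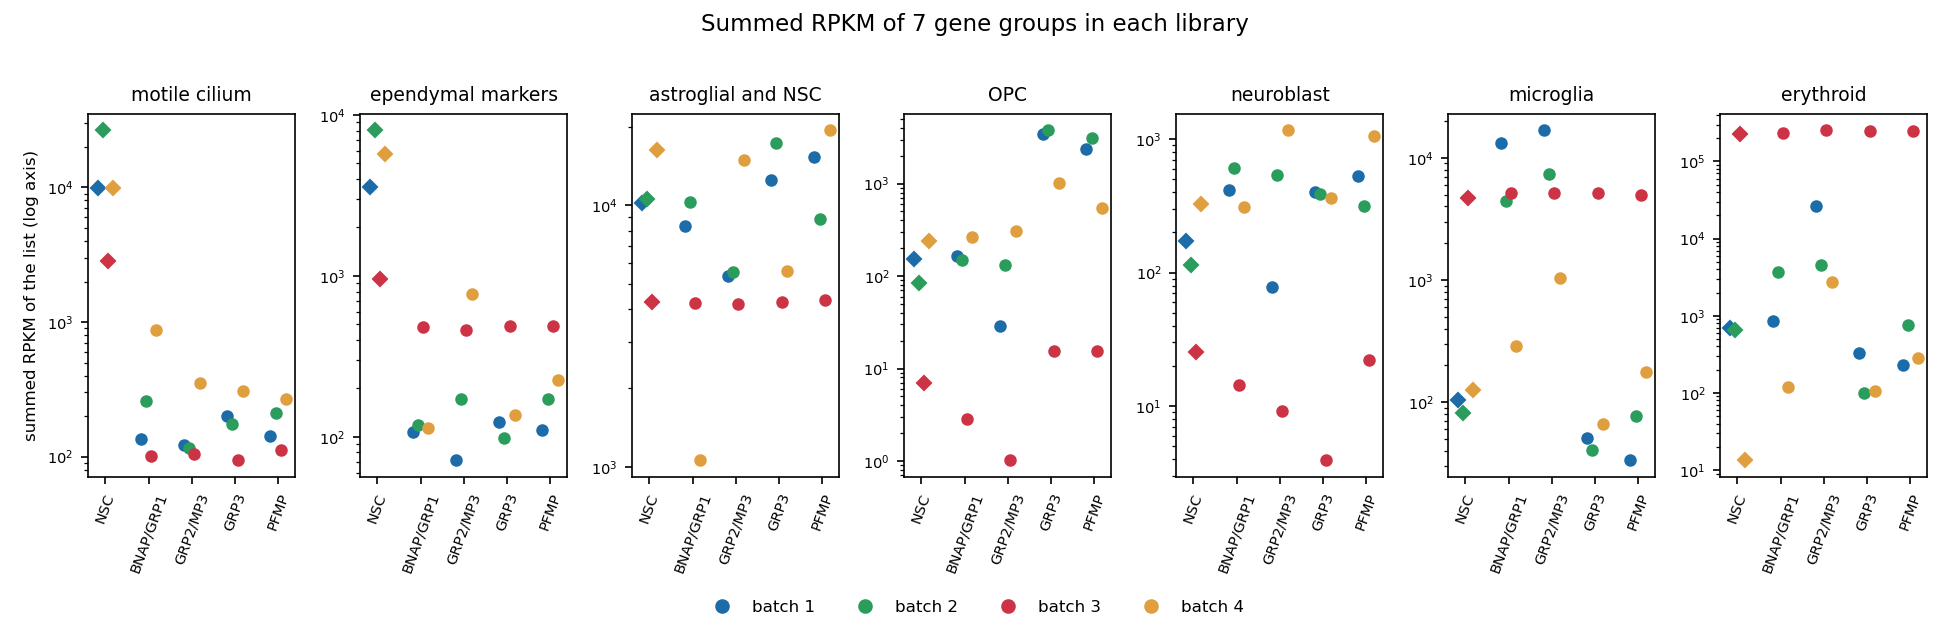
The panels show the summed RPKM of 7 gene groups in each of the 20 libraries on a log axis, by population, with colours for the batches. Motile cilium and ependymal sums are highest in the 4 NSC libraries, astroglial sums overlap between populations, and the sums of oligodendrocyte precursor genes are highest in GRP3 and PFMP outside batch 3.

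Genes of astroglia and neural stem cells carry the identity the gate is named for. Of 32 tested, 3 rose (9 with the replicate block, 1 without batch 3), none passed as lower, and 15 were higher and 0 lower at an unadjusted p of 0.05. The median difference was 0.90, and 18 of the 32 were higher in all 4 batches. Their summed RPKM was 10191, 10557, 4266 and 16249 in NSC 1 to 4, against batch means of the progenitors of 10375, 10484, 4264 and 10232. The sums lay close to the batch mean in batches 1, 2 and 3 and above it in batch 4. In some libraries 1 gene, Fabp7, made up most of the sum, with 12636 of 15299 RPKM in PFMP 1 and 14732 of 17268 in GRP3 2. It held 3508 of 10191 RPKM in NSC 1 and 301 of 5362 in GRP2/MP3 1. Close sums therefore do not show that the genes of the list were at equal levels.

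The astroglial genes that rose were Id4, Sox9 and Cpe. Id4, an inhibitor of differentiation factors, stood at 520, 290, 12.4 and 193 RPKM in NSC 1 to 4 and at 0.0429 to 41.1 RPKM in the progenitors (3.85 ± 0.35, adjusted p = 0.0217; 0.0476 without batch 3). Only NSC 3 fell within the progenitor range, and the progenitors of its batch held at most 0.713 RPKM. Sox9, a transcription factor of glial progenitors that ependymal cells also express, stood at 81.9, 115, 10.8 and 271 RPKM against 0.286 to 65.4 (2.43 ± 0.34, adjusted p = 0.0425; 0.101 without batch 3). Cpe, carboxypeptidase E, rose by 3.58 ± 0.48 (adjusted p = 0.0389; 0.0698 without batch 3). Without the replicate block none of these 3 passed, with adjusted p of 0.0926, 0.674 and 0.435.

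Classical stem cell genes of this list did not pass. Nes (nestin) stood at 4.55, 12.5, 0.870 and 14.9 RPKM in NSC 1 to 4 and at 0.241 to 15.96 RPKM in the progenitors (0.50 ± 0.33, adjusted p = 0.51). Gfap, the astrocyte intermediate filament, stood at 8.97, 6.17, 0 and 223 RPKM in NSC 1 to 4 against 0 to 268 (1.74 ± 0.50, adjusted p = 0.252). NSC 1 and NSC 2 lay above the progenitors of their batches, which held at most 2.18 and 0.986 RPKM. The batch 4 progenitors held 8.80 to 268 RPKM, and the difference in batch 3 was -0.0030. Sox2, a transcription factor of neural progenitors, differed by 2.08 ± 0.45 (adjusted p = 0.132) and Slc1a3, the glutamate transporter GLAST, by 1.55 ± 0.38 (adjusted p = 0.178). Hopx, a homeodomain protein of radial glia, was higher in all 16 comparisons within batches (2.92 ± 0.76, adjusted p = 0.209, and 0.00125 with the replicate block). Fabp7, a lipid-binding protein of radial glia, and Hes5, a Notch target, differed by 0.14 and 0.03 (adjusted p = 0.851 and 0.97). The water channel Aqp4, shared by astroglia and ependymal cells and read among the ependymal markers, differed by 1.71 ± 0.38 (adjusted p = 0.141; 0.0488 with the replicate block).

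Several called genes outside the lists are known from astroglia, and were chosen here after their values had been seen. Mlc1, a membrane protein of astrocyte endfeet, stood at 486, 266, 22.6 and 107 RPKM in NSC 1 to 4 and at 0.043 to 37.8 RPKM in the progenitors (4.08 ± 0.42, adjusted p = 0.0247). Mt3, a metallothionein of brain, rose by 4.42 ± 0.48 (adjusted p = 0.025), Gja1, the gap junction protein connexin 43, by 2.42 ± 0.33 (adjusted p = 0.0396) and Dbi, a binding protein of acyl-CoA, by 2.80 ± 0.40 (adjusted p = 0.0467). All were higher in 16 of 16 comparisons. Without batch 3, their adjusted p were 0.0644, 0.0577, 0.0607 and 0.0785.

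Other epithelial and vascular markers were read because a CD133+ gate could hold such cells. Of 10 choroid plexus genes, none passed (median 0.16; 4 higher and 0 lower at an unadjusted p of 0.05, and 4 higher with the replicate block). Ttr, the defining choroid plexus transcript, stood at 0.507, 2.84, 0 and 1.16 RPKM in NSC 1 to 4. Otx2 and Folr1, which stood at 35.0, 28.6, 5.85 and 14.0 and at 49.4, 178, 2.91 and 16.98 RPKM, differed by 2.87 (adjusted p = 0.0523; 0.00019 with the replicate block) and 3.64 (adjusted p = 0.157; 0.00141 with the replicate block). Of 13 endothelial genes none passed (median 1.30; 4 higher and 0 lower unadjusted). Their summed RPKM was 418, 203, 16.9 and 75.3 in NSC 1 to 4 and 7.46 to 224 in the progenitors. The medians by batch were 2.75, 0.81, 0.30 and 0.27, highest in batch 1. By gate the median was 1.11 against BNAP/GRP1, -0.03 against GRP2/MP3, 1.53 against GRP3 and 1.84 against PFMP. Against these gates in turn, 3, 1, 9 and 12 of the 13 genes were higher in all 4 batches. Of all genes, 7.68, 12, 9.07 and 12.3% were. Cldn5, a tight junction protein of endothelium, stood at 105, 71.7, 0.607 and 14.6 RPKM in NSC 1 to 4 (2.15 ± 0.77, adjusted p = 0.317). The part of these cells in the results was not tested.

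Few genes passed as lower in NSC. The 2 that did were both small RNA genes, Snord35a and 1 gene model, while 5.1% of the tested genes were of this kind. Snord35a, a small nucleolar RNA within Rpl13a on chromosome 7 (45126346 to 45126435 within 45125558 to 45128761), was at 0, 9.25, 0 and 0 RPKM in NSC 1 to 4. In the progenitors it ranged from 0, in 5 libraries, to 92.6 RPKM (-3.03 ± 0.42, adjusted p = 0.043; 0.102 without batch 3 and 0.184 with the replicate block). Its host Rpl13a differed by -0.75 (adjusted p = 0.406). Small RNAs are poorly held in a library of polyadenylated RNA, and reads here cannot be told apart from those of the host. Among the genes next in order of p were Snord8 and Mir3101, which were listed at 0 in all 4 NSC libraries and did not pass (adjusted p = 0.0805 and 0.0836). Of the 1495 genes lower at an unadjusted p of 0.05, 10.2% were small RNA genes.

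In 7 genes (0.0253%) every NSC library lay below all 16 progenitor libraries, and none of them passed the test (adjusted p = 0.204 to 0.349). With the replicate block Ptpro, Slc9a9, Pik3r1 and Mki67 passed (adjusted p = 0.00611, 0.00982, 0.0144 and 0.0274). They were Errfi1, a feedback inhibitor of the EGF receptor, Mki67, the proliferation antigen Ki-67, Pik3r1, a regulatory subunit of PI3 kinase, Ptpro, a receptor tyrosine phosphatase, Clcn6, an endosomal chloride transporter, Slc9a9, an endosomal sodium-proton exchanger, and Dock4, an activator of Rac. Mki67 stood at 0.436, 0.640, 2.66 and 1.44 RPKM in NSC 1 to 4 and at 2.75 to 14.1 RPKM in the progenitors (-1.57 ± 0.44). The gap between NSC 3 and the lowest progenitor library was small.

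Transit amplifying and cycling cells are the next step of the lineage, and their lists held no call. Of 10 regulators of transit amplifying cells none passed (median -0.75; 0 higher and 5 lower unadjusted; 3 lower with the replicate block). Etv1, an ETS transcription factor, was lower in all 16 comparisons (-1.98 ± 0.44, adjusted p = 0.148; 0.00968 with the replicate block). Of 21 cell cycle genes none passed (median -0.47; 0 higher and 3 lower unadjusted; 2 lower with the replicate block), and Top2a, a topoisomerase of dividing cells, differed by 0.31 ± 0.46 (adjusted p = 0.761), with a positive difference in batches 1 and 3. Neuroblast genes had a median of -0.88 (0 of 15 passed; 0 higher and 4 lower unadjusted), but 0.44 in batch 3. Dcx, doublecortin, stood at 2.74, 1.34, 0.802 and 1.96 RPKM in NSC 1 to 4 and at 0.124 to 39.1 RPKM in the progenitors (-1.76 ± 0.60, adjusted p = 0.301). Mature neuron genes had a median of -0.70 (0 of 9; 0 higher and 2 lower unadjusted).

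Oligodendrocyte precursor (OPC) genes had a median of -1.79, with 0 of 13 passing (2 lower with the replicate block) and 11 lower at an unadjusted p of 0.05. They were -3.44 against GRP3 and -3.05 against PFMP, the CD140a+ gates, and -0.93 against BNAP/GRP1 and -0.24 against GRP2/MP3. CD140a, an antigen of OPCs, was itself used to sort these gates. Olig2, a transcription factor of the oligodendrocyte lineage, stood at 8.92, 3.06, 0.144 and 4.67 RPKM in NSC 1 to 4 and at 0.340 to 1025 RPKM in the progenitors (-2.72 ± 0.58, adjusted p = 0.134). Olig1 differed by -2.66 ± 0.53 (adjusted p = 0.104; 0.0144 with the replicate block), and by -3.32 without batch 3, where it passed (adjusted p = 0.0476). In batch 3 the summed RPKM of the list was 7.01 in NSC and 1.02 to 15.5 in the progenitors. Genes of myelinating oligodendrocytes had a median of 0.03 (0 of 8; 1 higher and 1 lower unadjusted).

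Microglial genes had a median of -1.61, with 0 of 19 passing and 12 lower at an unadjusted p of 0.05. The medians were -2.95 against BNAP/GRP1 and -3.90 against GRP2/MP3, and 0.17 and 0.01 against GRP3 and PFMP. The list was lower in all 4 batches in 17 and 18 genes against BNAP/GRP1 and GRP2/MP3 and in 0 and 1 against GRP3 and PFMP, where 9.35, 4.76, 8.31 and 5.75% of all genes were lower in all 4 batches against the gates in this order. C1qa, a complement subunit made by microglia, stood at 1.95, 2.76, 518 and 3.63 RPKM in NSC 1 to 4, and the batch 3 progenitors held 563 to 589 RPKM (-2.21 ± 0.67, adjusted p = 0.27). The summed RPKM was 104, 80.8, 4669 and 126 in NSC 1 to 4 and 33.5 to 16801 in the progenitors. Pericyte genes showed no call of 11 (median -0.75; 0 higher and 4 lower unadjusted), with -2.63 against GRP2/MP3. Erythroid genes had a median of -0.93 (0 of 7; 0 higher and 0 lower unadjusted).

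**Figure D4:**
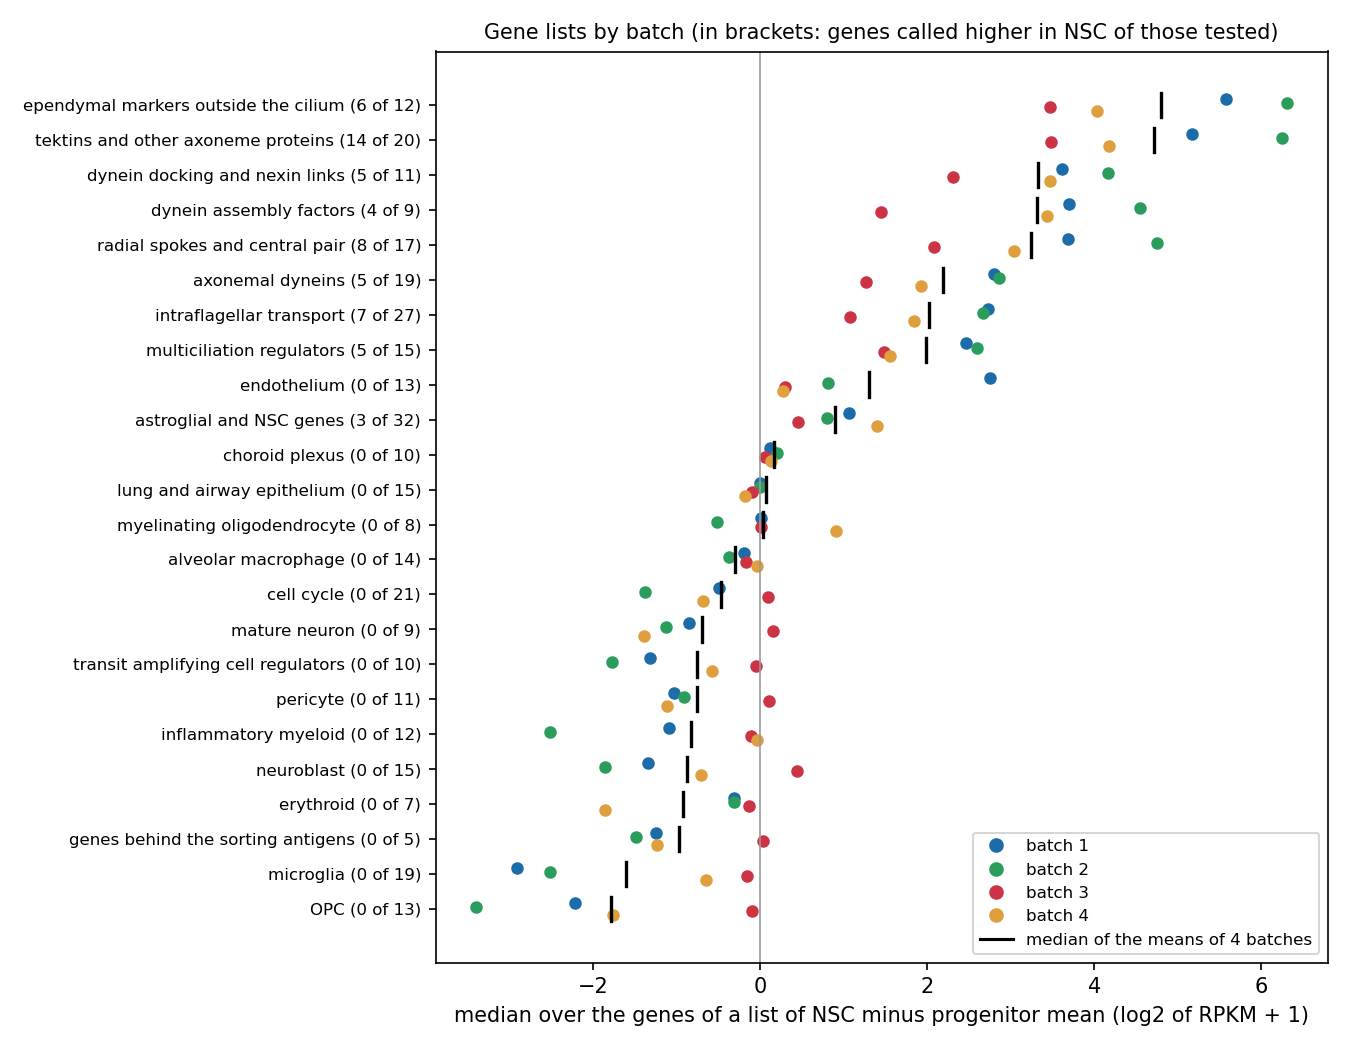
For each of the 24 gene lists the points give the median log2 difference, NSC minus progenitor mean, in each batch, with the median of the means of 4 batches and, in brackets, called over tested genes. Motile cilium, intraflagellar transport and ependymal lists lie to the right in every batch, and batch 3 lies nearest to 0 for most lists.

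NSC 3 was read apart from the other NSC libraries. Of the 27614 genes tested, it held 318 higher than its batch mean by a log2 of 3 or more and 52 lower by as much. Of the 318, 133 were among the 255 called and 34 in the cilium or ependymal lists. The largest difference was that of a small RNA gene, Rnu2-10, at 415 RPKM in NSC 3. It and mmu-mir-684-2, at 180 RPKM, were at 0 in the batch 3 progenitors and were not called. Several gene models had the same pattern, which rests on 1 library. Of the 318, 185 were also higher in NSC 1, 2 and 4 than their batch means, and 111 by a log2 of 3 or more in each. At a log2 of 1 or more, 1806 genes (6.54%) were higher and 419 (1.52%) lower.

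The transcripts in which NSC 3 stood furthest above the other NSC libraries were those its whole batch shared. Saa3, an acute phase protein, stood at 21804 RPKM in NSC 3 and at no more than 1.74 in the others, and the batch 3 progenitors held 23475 to 24245. Lyz2 (lysozyme), Slpi, Hmox1 (heme oxygenase), Il1a, Gpnmb, Cd74, Serpinb2 and Lilrb4 followed the same pattern, at 20269, 4283, 3530, 2296, 2052, 2010, 2006 and 1093 RPKM in NSC 3. Most of these are known from macrophages and inflammation. Against its batch mean NSC 3 differed by -0.12 for Saa3 and -0.15 for Lyz2. Gene models aside, Cyr61, Fos and Ptn stood furthest below, with Ptn (pleiotrophin) at 17.03 RPKM in NSC 3 and 1047, 579 and 1111 in NSC 1, 2 and 4. The batch 3 progenitors were low as well, at 1.63 to 17.8 RPKM for Ptn and 14.7 to 18.8 for Fos. For Cyr61 they held 1.39 to 2.32 RPKM, against 1.10 in NSC 3. Over the 4 batches Cyr61 differed by 2.00 (limma adjusted p = 0.283, and 0.0273 with the replicate block).

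Lists of blood, lung and myeloid genes gave the same picture. The median ratio of NSC 3 to its progenitor mean, over members with a mean of 10 RPKM or more, was 0.918 for erythroid, 0.893 for lung and airway, 0.883 for alveolar macrophage, 0.925 for inflammatory myeloid and 0.903 for microglial genes. The summed RPKM of lung and airway genes was 1847 in NSC 3, 2008 to 2087 in the batch 3 progenitors and at most 196 elsewhere. None of the lung (15), alveolar macrophage (14) and inflammatory (12) genes passed over the 4 batches, with medians of 0.07, -0.30 and -0.83. At an unadjusted p of 0.05, 2, 1 and 0 were higher and 0, 2 and 1 lower. The cause of these shared transcripts was not tested.

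Genes called without a batch were then read in that batch. Of the 160 called higher without batch 3, 157 (98.1%) were above 0 in batch 3, with a median of 2.59, whereas 44.8% of all genes were above 0 there. Of the 32 called without batch 2, all were above 0 in batch 2 with a median of 8.70 (38.8% of all genes). Of the 7 called lower without batch 3, 3 were below 0 in it (42.9%, against 36.1% of all genes). The differences of the 255 called genes had medians of 4.62, 5.08, 3.07 and 3.51 in batches 1 to 4, were smallest in batch 3 for 138 genes and largest in batch 2 for 156.

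Across all genes, the paired differences of batches 1 and 2 correlated at r = 0.579, those of batches 1 and 3 at 0.370, 1 and 4 at 0.358, 2 and 3 at 0.407, 2 and 4 at 0.383 and 3 and 4 at 0.256. These are descriptions across genes, which are not independent replicates.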

How the data were processed

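RNA was measured in 20 libraries of 5 sorted populations in 4 batches. Polyadenylated RNA was amplified (MessageAmp II), made into TruSeq libraries and sequenced on a NextSeq500. The authors deposited RPKM per gene. Per the labels and their methods, the authors used FastQC 0.11.9, cutadapt 3.4, STAR 2.6.1, Salmon 1.9.0, DESeq2 1.26.0 and GRCm38. The read totals, gene lengths and annotation release behind the RPKM and the strandedness of counting are not given in the sources used here, so depth is known only in relative terms, and no counting interval is given. Near copies, overlapping genes and antisense genes are uncertain.

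Values were taken as log2(RPKM + 1), with a pseudocount of 1. Genes with 1 RPKM or more in at least 4 of 20 libraries were kept, and the 4 NSC libraries alone could meet this filter. Per batch, the mean of the 4 progenitors was subtracted from NSC, and the 4 differences were tested against 0 by limma 3.58.1 (R 4.3.3; empirical Bayes with trend), with Benjamini-Hochberg adjustment over 27614 genes at 0.05. An exact sign permutation of 4 pairs cannot go below p = 0.125. The test was checked on simulated data, in which 200 of 27614 genes were shifted by a log2 of 6. Of these 196 were called, as were 7 unchanged genes. The check does not speak to smaller differences. Batch numbers come from the sample titles. Libraries of the same batch deviated together from the population means (median r = 0.405, 0.293, 0.745 and 0.581 in batches 1 to 4, lowest 0.0341). Between batches the medians were -0.105 to -0.298. Deviations of a population sum to 0 over its batches, so these negative values follow from the calculation and give no contrast. The labels give these numbers as batches and the study describes independent experiments. P-values of the paired test measure the spread between them. The replicate block fit takes its spread from all 20 libraries, progenitors included, after population and batch are removed. Its p-values therefore do not measure the spread of NSC alone. The fit without a block removes population only.

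The genes named were the 12 largest differences among called genes, up to 10 lower genes, members of 24 lists (358 of 361 symbols found) and the 10 genes furthest above and below the other NSC libraries in NSC 3, with gene models counted only. The comparison, its lists and genes were chosen with earlier results of these data known. Promoter windows were from RefSeq and positions from the GENCODE annotation of GRCm38. Alternatives changed the pseudocount, filter, scaling, variance prior, block, progenitor mean and batches.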

Additional observations from a re-analysis of the deposited data

Results flagged for a closer look

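Values were flagged where 1 of 4 batches lay far from the other 3 (Dixon's ratio above its 95% critical value for 4 samples). This applied to 28 of 196 series of single genes, 26 of them in batch 3, and to 5 of 48 series of lists, 4 of them in batch 3. Chance flags about 1 in 20, genes of 1 library are not independent, and 11 of the 28 genes had been chosen because NSC 3 stood furthest above or below the other NSC libraries.

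NSC 3 was high, at 21804 RPKM for Saa3, 20269 for Lyz2, 4283 for Slpi, 3530 for Hmox1, 2296 for Il1a, 2052 for Gpnmb, 2010 for Cd74, 2006 for Serpinb2, 1093 for Lilrb4 and 518 for C1qa. Its summed RPKM stood apart at 4669 for microglial and 2320 for alveolar macrophage genes. NSC 3 was low, at 0.051 RPKM for Gmnc, 0.516 for Hydin, 48.5 for Tm4sf1, 71.1 for Ezr, 1.37 for Aqp4, 228 for Fabp7, 1.32 for Hes5, 1.22 for Olig1, 16.5 for Fos and 17.03 for Ptn.

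The paired difference of batch 3 stood apart at 0.80 for Rfx2, 2.86 for Ccdc103, -0.0030 for Gfap, 0.098 for Fut9, -0.16 for Mki67 and -0.23 for Ptpro. Its median stood apart at 0.10 for pericyte genes and 0.031 for the genes behind the sorting antigens. Outside batch 3, the paired difference of Ift81 was 4.50 in batch 1, Snord35a was at 9.25 RPKM in NSC 2 and at 0 in the other NSC libraries, and the median of erythroid genes was -1.86 in batch 4.

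Fabp7 differed by 0.96 between NSC and BNAP/GRP1 and by -0.85 between NSC and PFMP, with opposite signs in all batches. This difference between the contrasts was not tested.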

How the results depend on the processing

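None of the 42 called genes among the 98 followed changed direction under any alternative listed here, whereas genes near 0 could, as Top2a did from 0.31 to -0.19 without batch 3. The medians of the motile cilium lists lay between 2.89 and 4.70. The numbers of genes higher and lower moved from 255 and 2 to 475 and 14 with a pseudocount of 0.1, 410 and 15 with the stricter filter, 34 and 0 without the variance trend, and 441 and 8 without BNAP/GRP1 in the mean. Without a filter, over 42687 genes, no gene passed by limma (2175 higher and 1563 lower at an unadjusted p of 0.05), and the 42 called genes followed were all lost. The numbers were 207 and 1 with median-of-ratios scaling, 229 and 1 without GRP2/MP3, 211 and 0 without GRP3, and 219 and 20 with the log2 of the mean RPKM. Leaving out 1 batch gave 0 to 160 genes higher and 0 to 7 lower. None passed without batch 1 or without batch 4, 32 and 0 without batch 2, and 160 and 7 without batch 3, each with 3 pairs in place of 4. Of the genes called without batch 3, 94.3% were higher in it with a pseudocount of 0.1 and 93.8% with the stricter filter, against 98.1%. Apart from the smaller number of pairs, the cause was not tested.

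Pairing by batch mattered for the number of calls. Without the replicate block 540 genes were higher and 6 lower, of which 217 and 0 were also called with pairs. With the replicate block over 20 libraries 1143 were higher and 62 lower, 254 and 0 of them shared. Chosen after seeing the data, leaving out BNAP/GRP1 of batch 4 gave 512 and 12, and a replicate block over the 16 libraries of batches 1, 2 and 4 gave 880 and 95. With 4 pairs and the unknown depth, the absence of a call in a list does not show that its genes did not differ.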
